A study of Mus musculus with 24 samples.

Results

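The comparison described here was between BAF180-deficient and WT Th2 cells at rest, which took up 6 of the 24 arrays of the study, 3 for each genotype. The arrays were chosen by their labels, and every gene measured on them was compared. BAF180, encoded by Pbrm1, is a subunit of SWI/SNF, a family of large complexes that use ATP to move or eject nucleosomes. SWI/SNF complexes come in several forms, and BAF180 together with BAF200 and BRD7 marks the form named PBAF, whereas BAF250 marks the form named BAF. Bromodomains of BAF180 recognize acetylated histones. Th2 cells are the CD4+ T helper cells that make IL-4, IL-5 and IL-13, and they can also make IL-10, a cytokine that restrains immune responses.

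The study asked what BAF180 does in CD4+ T cells before and after stimulation, and its other 18 arrays held stimulated Th2 cells and resting and stimulated naïve cells of the same genotypes. The deficient mice carried a Pbrm1 allele with an exon between loxP sites and a Cre transgene driven by the Cd4 promoter, which acts late in the development of thymocytes, so that the precursors and the non-T cells of these mice kept BAF180. Naïve CD4+ cells from the spleens and lymph nodes of mice aged 4 to 6 weeks, at a purity of 95%, were the starting population for both genotypes. They were activated on plates with anti-CD3 (1 µg/ml) and anti-CD28 (2 µg/ml) in the presence of IL-4 (10 ng/ml) and an antibody to IFN-γ (10 µg/ml), were given IL-2 (100 U/ml) after 24 h, and were expanded in IL-2 from day 3. No further stimulus was given to the resting cells. The labels give the strain of both genotypes as Balb/c, whereas the methods describe the deficient line on a mixed B6-129 background before the cross to Cre mice, and the strain of the mice was not settled by these data.

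Levels are given as log2 intensities after background correction and quantile normalization, so that a difference of 1 stands for a factor of 2, understated for dim probes. Each gene is represented by its brightest probe, and a difference is BAF180-deficient minus WT. The 6 arrays detected between 9516 and 10432 probes each, and pairs of arrays of a genotype correlated between 0.974 and 0.989 across probes. Pairs of 1 WT and 1 deficient array correlated between 0.9675 and 0.9906, so that the arrays did not separate by genotype in this measure. BAF180-deficient replicate C stood apart. Its level of Xist, the RNA that coats the inactive X chromosome, was 8.71 and lay between 4.29 and 4.97 on the other 5 arrays, and its level of Ddx3y, a gene of the Y chromosome, was 4.90 against 8.09 to 9.24. Its sex-linked transcripts thus differed from those of the other arrays, and calls are also given without it or without letter C. WT and BAF180-deficient replicates C also deviated together from replicates A and B. The deviations of the WT and the deficient array of the same letter from their groups correlated with 0.62 for C, 0.18 for B and 0.05 for A, and those of WT A with deficient B with 0.43. Pooled over the 4 cell states, the same correlations were 0.30 for A, 0.14 for B and 0.52 for C. The arrays came from 3 pairs of mice, but no source used here states that the letters mark the pairs, and in this state letter A did not bear out a pairing, whereas over all states every letter exceeded 0.1.

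Th2 identity was visible on the arrays of both genotypes. All 12 T cell markers were detected, Gata3, the transcription factor that directs Th2 differentiation, lay between 9.27 and 9.87, Ecm1 lay between 12.04 and 12.67 and Il4 between 8.35 and 10.48. Of 15 Th2 markers 12 were detected on at least 1 array, and Ccr3, Il1rl1 and Il17rb were not. Il5 and Il13, the other signature cytokines, were close to background, between 4.16 and 4.81 and between 4.35 and 5.02. Transcripts of other cells were also present. The summed linear level of 11 B cell markers was between 704 and 2069.5 in WT and between 906 and 2463 in BAF180-deficient cells, was higher in the deficient array of each letter (10 of 11 markers, median 0.17) and was highest on both C arrays, although Pax5, Cr2 and Ebf1 did not pass the detection filter and Ms4a1, Cd22 and Fcer2a were not detected. Of 11 myeloid markers that passed the filter 4 were detected on at least 1 array, among them Adgre1, with means of 6.06 in WT and 5.64 in deficient cells. Lyz2, Tyrobp, Cd14, S100a8, S100a9, Fcgr3 and Clec7a were not detected. The summed level of 6 markers of NK and CD8 T cells was between 305 and 470 in WT and between 187 and 365 in deficient cells, lower in the deficient array of each letter. Of these 6 Klrb1c, Klrk1 and Klre1 were not detected, and Cd8a, Ncr1 and Gzma did not pass the filter. Cd8b1 differed by -0.95 and the median of the 6 was -0.06, so that the sum rested largely on Cd8b1. The part of these cell types in the differences was not tested. In such bulk samples fewer cells of a type and less RNA per cell cannot be told apart.

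Pbrm1 checked the genotype labels. Its level was 9.06, 9.06 and 8.88 in WT replicates A, B and C and 7.16, 7.23 and 7.02 in the BAF180-deficient replicates. Every deficient array lay below every WT array. The fall of 1.86 (standard error 0.23, limma adjusted p = 0.00101) was the most significant of all probes in the model without a term for the replicate letter. A two-sided exact permutation test gave p = 0.1, which is the lowest value possible for groups of 3 and 3. Pbrm1 had 2 more probes, which were dim, at 4.82 and 5.20 in WT and at 4.35 and 4.44 in deficient cells, where neither was detected on any array. The gene lies at chr14:31019138-31121592 (GRCm38.p6, from RefSeq). The place of the probes relative to the deleted exon is not given in the deposited table.

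The methods set 4 criteria, and a gene was called when at least 1 of its probes passed them. They were a mean signal above 0, a p below 0.05, a Z-ratio beyond 1.5, here a log2 difference of 0.31, and an FDR below 0.3. Without a term for the replicate letter 11 of 10419 genes were called, or 0.106%, of which 4 (0.0384%) were higher and 7 (0.0672%) lower in BAF180-deficient cells. With the letter as a block common to all cell states 16 genes (0.154%) were called, 6 higher (0.0576%) and 10 lower (0.096%), and they included the 11. With a letter for each cell state, which treats the arrays of a letter in this state as a pair, 127 genes (1.22%) were called, 73 higher (0.701%) and 54 lower (0.518%), and they included the 16. The number of calls therefore turned on how the letters were read. An unadjusted p below 0.05 was reached by 489, 623 and 982 probes under the 3 models, where 712.3 of 14246 would be by chance, and 4, 3 and 13 probes had an adjusted p below 0.05. Without BAF180-deficient replicate C only Pbrm1 and Hsd17b11 were called in the model without a block, and the same 2 without WT replicate B. Without WT replicate C there were 35. Leaving out letter C from the model with a letter for each state left 37 genes.

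**Figure D1:**
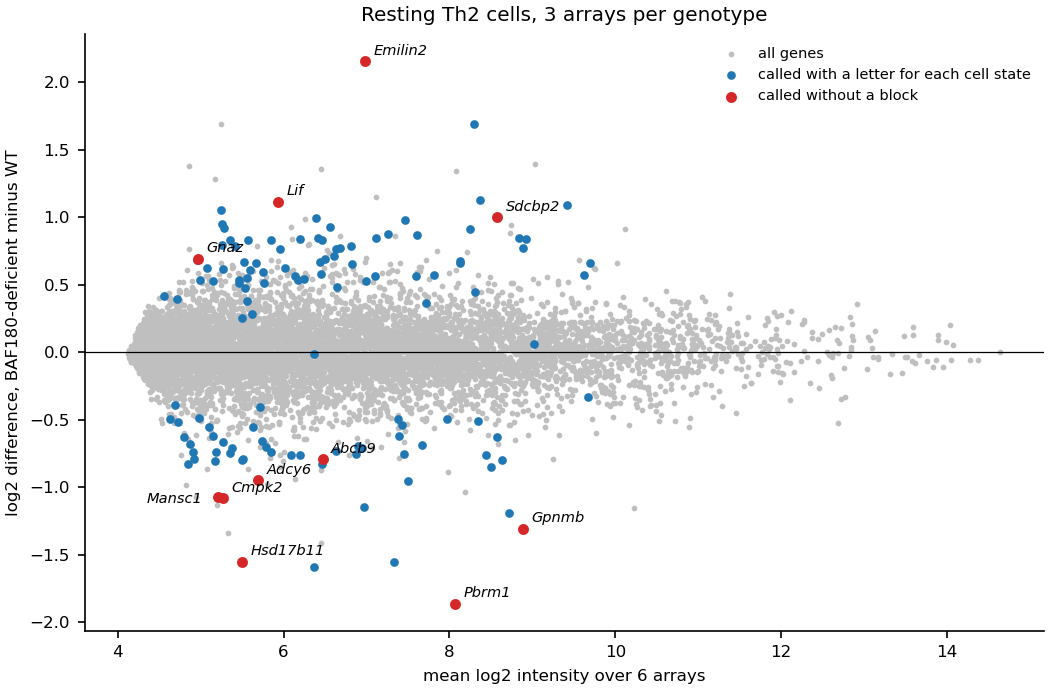
Difference between BAF180-deficient and WT resting Th2 cells (vertical axis, log2) against the mean level over the 6 arrays (horizontal axis, log2 intensity) for 10419 genes by their brightest probe. Gray points are all genes, blue points the 127 genes called with a letter for each cell state (some through another probe), and red labelled points the 11 genes called without a block, which range from a fall of 1.86 for Pbrm1 to a rise of 2.16 for Emilin2.

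The genes called without a block were of diverse function. Apart from Pbrm1, the lower genes were Hsd17b11, Gpnmb, Cmpk2, Mansc1, Adcy6 and Abcb9, and the higher genes were Emilin2, Lif, Sdcbp2 and Gnaz. The levels of the genotypes did not overlap for any of these 11, which were chosen for their difference on the same arrays. Hsd17b11, an enzyme of lipid droplets that oxidizes steroids, stood at 5.90, 6.22 and 6.70 in WT and at 4.40, 4.49 and 5.29 in BAF180-deficient cells. It was detected on all 3 WT arrays and on 1 of the deficient arrays. The fall of 1.55 (SE 0.26) had an adjusted p of 0.0391, of 0.00342 with the block and of 0.000962 with a letter for each state. Together with Pbrm1 it was called whichever single array was left out. Gpnmb, a glycoprotein that restrains T cell activation, was at 9.10, 9.82 and 9.71 in WT and at 8.61, 7.83 and 8.28 in deficient cells (difference -1.31, adjusted p = 0.163). A second probe of Gpnmb was also called (-0.77), while the third was at background in all arrays. Adcy6, an adenylyl cyclase, fell by 0.94, from 6.21, 6.27 and 6.02 to 5.25, 5.56 and 4.85 (adjusted p = 0.0425). Abcb9, a peptide transporter of the lysosome, fell by 0.79 (adjusted p = 0.244) and Mansc1 by 1.07 (adjusted p = 0.199).

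Among these 4 higher genes Emilin2, which encodes a glycoprotein of the extracellular matrix, had the largest difference. Its level was 6.09, 6.15 and 5.47 in WT and 8.25, 8.31 and 7.63 in BAF180-deficient cells, with each deficient array 2.16 above the WT array of its letter. The rise of 2.16 (SE 0.46) had an adjusted p of 0.212, which met the criteria. It no longer did without any 1 of the 6 arrays (limma adjusted p between 0.305 and 0.775), and it was called in 8 of 17 alternatives. Gnaz, the alpha subunit of an inhibitory G protein, was dim at 4.69, 4.53 and 4.65 in WT and 5.40, 5.02 and 5.53 in deficient cells (rise of 0.69, adjusted p = 0.0391). Sdcbp2, a syntenin that binds syndecans, rose by 1.00, from 8.02, 7.85 and 8.37 to 9.12, 9.20 and 8.90 (adjusted p = 0.194). With the block Slc28a2 (-0.83), Heatr5a (-0.76) and Bik (-0.74), a BH3-only inducer of apoptosis, were added among the lower genes. Nme4 (0.77), a mitochondrial nucleoside diphosphate kinase, and Col18a1 (0.84), a collagen, were added among the higher ones.

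**Figure D2:**
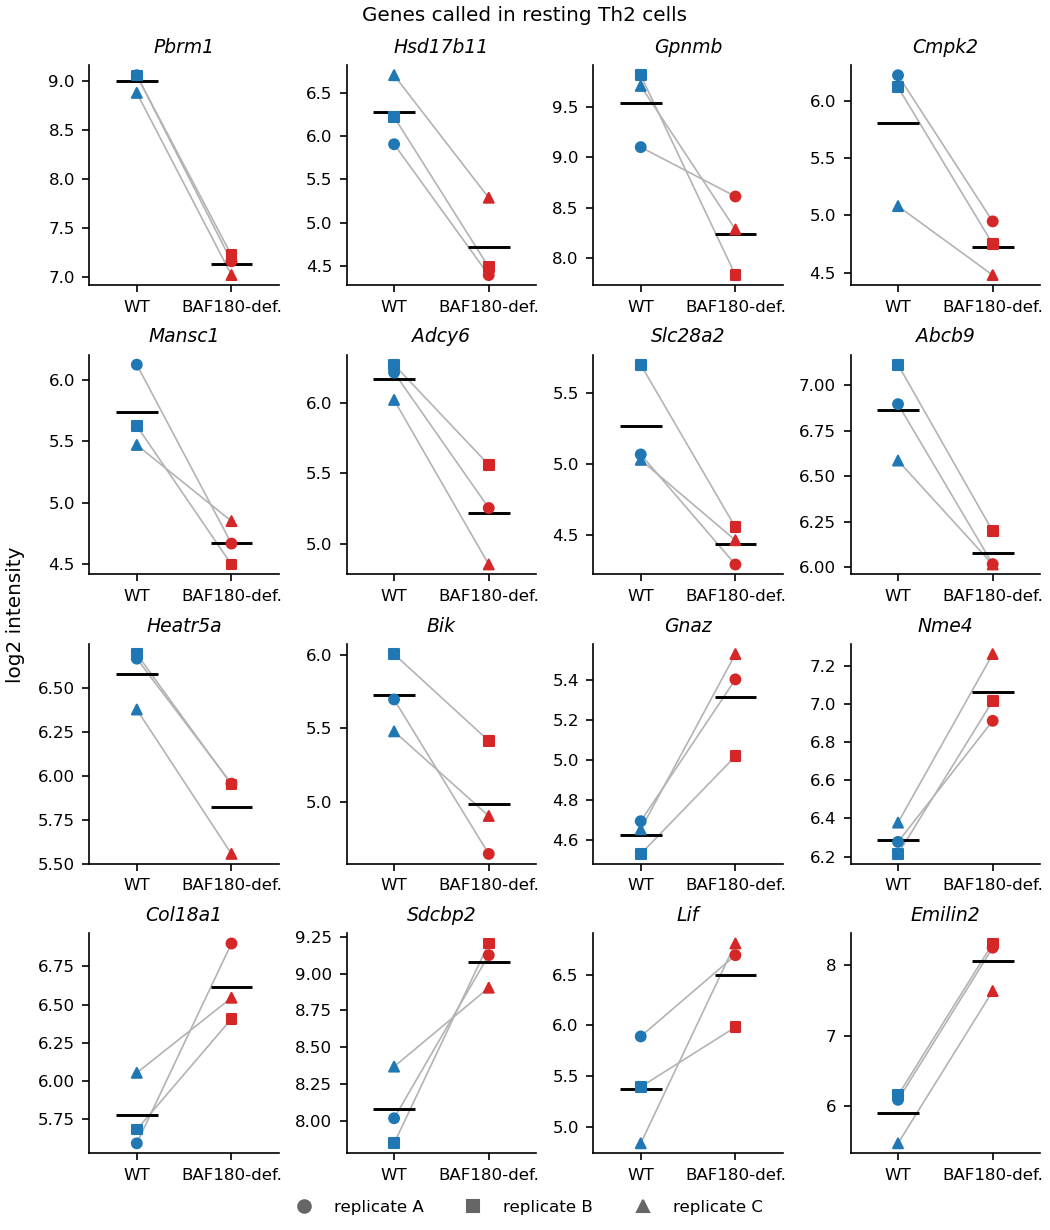
Log2 intensity (vertical axis) of the 16 genes called without a block or with the replicate block, in WT and BAF180-deficient resting Th2 cells. Each point is an array, lines join arrays of the same letter, and horizontal bars are the means of 3 arrays. The vertical scale differs between panels, and WT and deficient arrays do not overlap in any of them.

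Cytokine transcripts were next grouped by lineage. Of 13 cytokines of the type 2 and IL-10 families 10 passed the detection filter, 7 of them were higher in BAF180-deficient cells, and their median difference was 0.07 against 0.00 for all genes. That median lay between -0.017 and 0.17 without single arrays, so that its sign was not settled. None was called without a block or with the common block. Il10 was at 7.73, 7.79 and 6.84 in WT and at 9.55, 9.29 and 8.60 in BAF180-deficient cells. All deficient arrays thus lay above all WT arrays, by a factor of 3.23 on average. The difference of 1.69 (SE 0.56) missed the threshold without a block (limma adjusted p = 0.988) and with the common block (adjusted p = 0.319), and was called with a letter for each state (adjusted p = 0.0204), also when letter C was left out (0.152). Il24, the neighbour of Il10 that encodes a cytokine of the same family, was at 9.43, 8.83 and 6.76 in WT and at 10.04, 9.62 and 9.54 in deficient cells. Its difference of 1.39 rested largely on WT replicate C and was not called under any of the 3 models (adjusted p = 0.386 with a letter for each state).

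The other cytokines of this group differed less. Il4 was at 10.19, 9.74 and 8.35 in WT and at 10.48, 10.43 and 9.24 in BAF180-deficient cells, higher in the deficient array of each letter, and its genotypes overlapped (difference 0.62, SE 0.49). Without WT replicate C the difference of Il4 was 0.087. Il13 (0.05), Il5 (0.10), Il19 (-0.02), Csf2 (-0.10), Areg (0.08), Il3 (-0.04) and Il6 (0.01) were all within 0.10 of WT, and the last 3 were not detected on any array. At this level of signal a difference in those cytokines could not be detected in resting cells. Among 13 cytokines of other lineages only Lif, a cytokine of the IL-6 family, was called. It stood at 5.89, 5.40 and 4.84 in WT and at 6.69, 5.98 and 6.81 in deficient cells, a rise of 1.12 (SE 0.24, adjusted p = 0.218). Without BAF180-deficient replicate C, where it was highest, the difference was 0.96 and was not called (limma adjusted p = 0.783), and the call was also lost without deficient replicate A or WT replicate B or C. Tgfb1 was at 7.34, 7.51 and 7.20 in WT and 8.10, 7.85 and 7.90 in deficient cells (0.60, adjusted p = 0.759). Lta, the TNF family member lymphotoxin alpha, was at 6.63, 6.16 and 5.66 against 6.68, 6.94 and 7.10 (0.76, adjusted p = 0.759). Ebi3, a subunit shared by IL-27 and IL-35, was lower on all 3 deficient arrays than on any WT array (-0.50), and was not called. Ifng was detected on a single array, WT replicate B.

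Genes of regulatory T cells, which suppress immune responses and depend on Foxp3, were followed as a list of which 18 passed the filter. The list holds Il2ra, Ctla4, Icos and Foxp3, which the study named as array results in Th2 cells, so that its direction is not independent evidence. Of the 18 genes 12 were higher in BAF180-deficient cells, with a median difference of 0.19, which lay between 0.086 and 0.26 without single arrays. Foxp3 itself was at 5.79, 5.75 and 6.14 in WT and at 6.55, 6.78 and 7.34 in deficient cells. The difference of 1.00 (SE 0.27) had an adjusted p of 0.465 without a block and was called with a letter for each state (0.0305), also without letter C (0.214). Its other 2 probes differed by 0.22 and 0.61. Il2ra, the high-affinity subunit of the IL-2 receptor, was at 8.50, 7.86 and 8.27 against 8.55, 8.71 and 8.91 (0.52), Ikzf4, the transcription factor Eos, was higher on all deficient arrays (0.56), and Icos was higher in the deficient array of each letter (0.35). None of these 3 was called. Ctla4, an inhibitory receptor, was at 6.90, 7.36 and 8.56 in WT and at 7.81, 7.28 and 8.02 in deficient cells, with no common direction (0.09). Ikzf2, Nrp1 and Tnfrsf4, further genes typical of regulatory T cells, differed by 0.10, -0.29 and -0.24.

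Furin, a protease that activates TGF-beta and other precursors, was at 8.75, 8.07 and 8.04 in WT and at 9.19, 9.19 and 9.12 in BAF180-deficient cells (0.88, SE 0.32, limma adjusted p = 0.399 with a letter for each state). It did not pass the FDR under any of the 3 models. Rgs1, which shortens signals from chemokine receptors, was at 9.21, 8.53 and 8.87 against 9.80, 10.30 and 9.76 (1.09), was called with a letter for each state (adjusted p = 0.10) but not without letter B (0.497), and its other 2 probes differed by 0.66 and 0.99. Other genes that the study named for Th2 cells differed less. The study did not say for each of them whether it was found at rest or after stimulation. Nras differed by 0.07, Kdm3a by 0.11, E2f1 by 0.23, Nfil3 by 0.38 and E2f6 by 0.39. Below WT were Cd28 (-0.51), a costimulatory receptor, Egr1 (-0.55), an immediate early transcription factor, Ikbke (-0.44), Rb1 (-0.31), Cdk2 (-0.22), Bcl2 (-0.13), Chd4 (-0.12) and Igf1r (-0.07). Prkca differed by 0.01 and Cd44, an adhesion receptor of memory cells, by -0.12. None of these was called under any of the 3 models, though WT and deficient arrays did not overlap for Cd28, Egr1, Ikbke, Rb1, Cdk2, E2f1 and E2f6, as for 10.3% of all genes. The study named these genes from the arrays of this series, so that their separation is not independent evidence. Jak2, the kinase of several cytokine receptors, was called with a letter for each state. It stood at 8.73, 8.88 and 8.85 in WT and at 7.79, 8.20 and 8.20 in deficient cells (-0.76, adjusted p = 0.114 in that model and 0.651 without a block).

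Inhibitors of cyclin-dependent kinases slow the cell cycle. Of 7 measured 2 were called with a letter for each state, against 1.22% of all genes, and none without a block. Both, Cdkn2a and Cdkn1a, were named by the study as repressed by BAF180, Cdkn2a among its array results in Th2 cells. Their share is therefore not independent evidence. Cdkn2a, which encodes the inhibitors p16INK4A and p19ARF, was at 5.75, 5.19 and 5.34 in WT and at 6.33, 5.94 and 6.50 in BAF180-deficient cells. The difference of 0.83 (SE 0.22) had an adjusted p of 0.465 without a block and of 0.0771 with a letter for each state. Cdkn1a, which encodes p21, was at 9.82, 9.53 and 8.75 in WT and at 10.28, 10.28 and 9.52 in deficient cells. It was higher in the deficient array of each letter (0.66), overlapped between the genotypes, differed by 0.35 without WT replicate C, and had an adjusted p of 0.168 with a letter for each state. Neither Cdkn2a (limma adjusted p = 0.474) nor Cdkn1a (0.639) was called in that model without letter C, and Cdkn1a was not without letter B (0.632) either. Cdkn2b, next to Cdkn2a, was higher on all deficient arrays (0.42) and was not called. Cdkn1b, Cdkn1c, Cdkn2c and Cdkn2d differed by between -0.19 and 0.05. Of 24 genes of the p53 response 15 were higher (median 0.07). Phlda3 (0.58), Cdkn1a and Dcxr (0.93) were called with a letter for each state, again against 1.22% of all genes. Cdkn1a is thus counted in both lists. Genes of DNA replication (36, median -0.01) and mitosis (32, median -0.04) were centred near all genes.

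**Figure D3:**
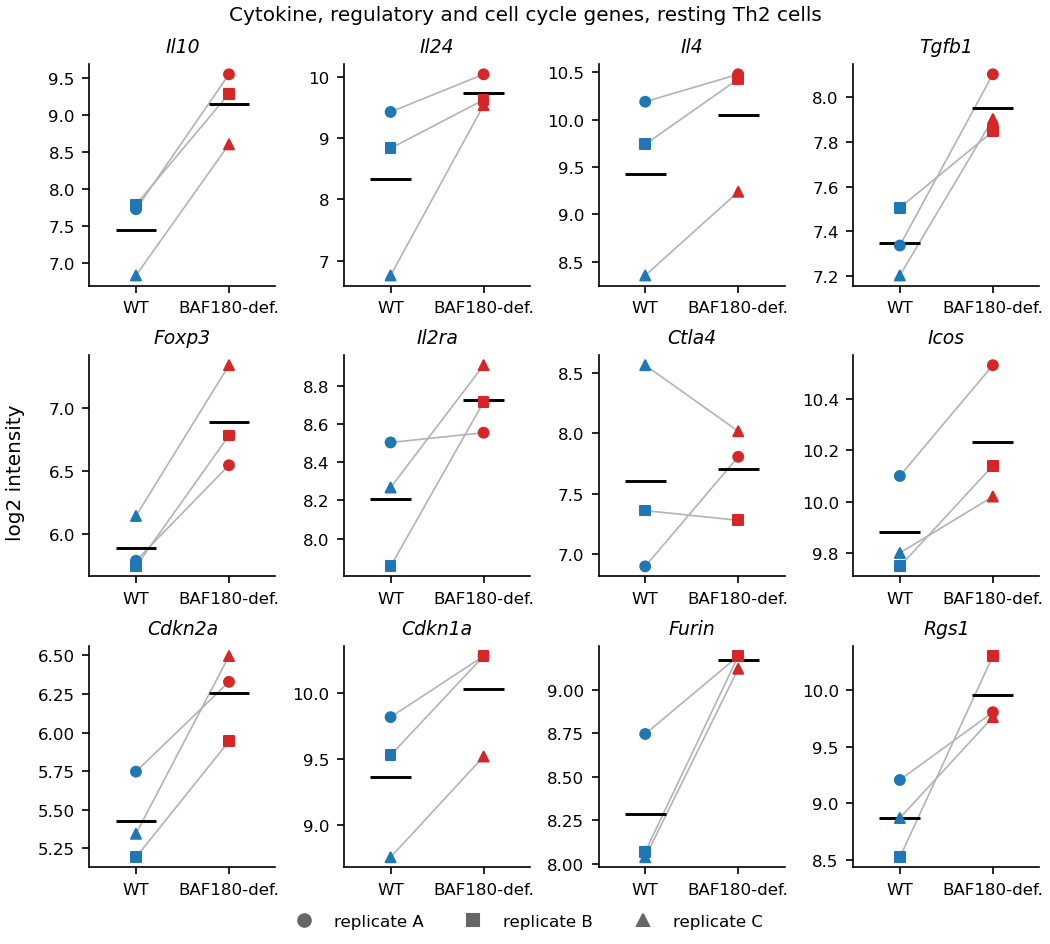
Log2 intensity (vertical axis) of 12 genes of cytokines, regulatory T cells, signaling and cell cycle inhibition in WT and BAF180-deficient resting Th2 cells. Each point is an array, lines join arrays of the same letter, and horizontal bars are means of 3 arrays. Il10, Foxp3, Cdkn2a, Furin, Rgs1, Il2ra and Tgfb1 do not overlap between genotypes, whereas Il4, Cdkn1a, Ctla4 and Icos do, and WT replicate C of Il24 lies far below the other 5 arrays.

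Interferon-stimulated genes were mostly lower in BAF180-deficient cells. These genes are switched on when interferons activate transcription factors that bind the interferon-stimulated response element, and they encode antiviral enzymes and sensors. Of 40 that passed the filter 32 were lower in BAF180-deficient cells, and the median difference was -0.32 against 0.00 for all genes. One of them, Cmpk2, was called without a block, with the common block and with a letter for each state. An unadjusted p below 0.05 with a lower level was found for 10 of the 40, against 1.61% of all genes, and with a higher level for none, against 1.97%. Promoters of this group are shown because they hold the sequence through which the group is known to be regulated. The core of the element, the letters GAAA followed by any 2 bases and again GAAA, was searched on both strands between 250 bases before and 50 bases after the start of each gene (RefSeq, GRCm38.p6). It was in the promoters of 15 of the 29 interferon-stimulated genes with an entry (51.7%) and of 3.99% of 27025 genes. The 3 such members with the lowest differences are given 5′ to 3′ with the match in capitals, on the strand of the gene. The first is Rsad2 at chr12:26456403-26456702 (minus strand), the second Ifit3 at chr19:34583279-34583578 (plus strand) and the third Isg15 at chr4:156200769-156201068 (minus strand).
Rsad2: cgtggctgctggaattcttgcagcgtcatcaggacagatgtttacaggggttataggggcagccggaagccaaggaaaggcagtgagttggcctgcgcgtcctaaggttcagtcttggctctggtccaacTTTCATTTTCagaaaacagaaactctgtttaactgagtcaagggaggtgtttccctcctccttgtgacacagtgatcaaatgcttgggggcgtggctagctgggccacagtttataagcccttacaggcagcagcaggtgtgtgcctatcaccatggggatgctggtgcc
Ifit3: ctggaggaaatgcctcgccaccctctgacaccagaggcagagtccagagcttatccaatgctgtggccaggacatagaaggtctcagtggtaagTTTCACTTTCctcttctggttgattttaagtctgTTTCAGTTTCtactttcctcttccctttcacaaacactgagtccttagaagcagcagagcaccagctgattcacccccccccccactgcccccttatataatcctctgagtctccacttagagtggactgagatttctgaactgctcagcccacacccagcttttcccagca
Isg15: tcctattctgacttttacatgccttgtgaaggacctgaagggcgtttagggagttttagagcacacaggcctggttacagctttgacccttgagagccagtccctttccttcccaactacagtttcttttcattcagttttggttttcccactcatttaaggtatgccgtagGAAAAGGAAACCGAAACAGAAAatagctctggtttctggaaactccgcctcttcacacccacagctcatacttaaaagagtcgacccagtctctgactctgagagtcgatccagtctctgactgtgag
The match of Rsad2 and both matches of Ifit3 lie on the opposite strand, and the 3 overlapping matches of Isg15 on the strand of the gene, from 78 bases before its start. Members with a match had a median difference of -0.36 (15 genes, 11 lower) and members without one of -0.20 (14 genes, 13 lower), so that lower levels were found in both.

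The values of single interferon-stimulated genes show which arrays carried the difference. Cmpk2, a mitochondrial nucleotide kinase beside Rsad2 on chromosome 12, was at 6.22, 6.12 and 5.08 in WT and at 4.95, 4.75 and 4.48 in BAF180-deficient cells (-1.08, SE 0.22, adjusted p = 0.194). Its promoter did not hold the core in this window. The members that follow were chosen after their values were seen. Rsad2, the antiviral enzyme viperin, was at 6.75, 6.90 and 4.34 in WT and at 4.65, 5.02 and 4.33 in deficient cells. Ifit3, which binds foreign RNA with its partners, was at 6.18, 6.42 and 4.69 against 4.64, 4.73 and 4.55. Isg15, a ubiquitin-like modifier, was at 7.26, 6.98 and 4.61 against 5.32, 5.77 and 4.83, and Usp18, which removes it, at 7.52, 7.64 and 5.49 against 5.83, 6.55 and 5.65. Thus WT replicates A and B stood high, and WT replicate C was as low as the deficient arrays. The median difference of the list was -0.43 between the arrays of letter A, -0.35 for B and -0.02 for C.

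Without WT replicate C, the array that lay as low as the deficient ones, the median was -0.43. Then 5 of the 40 genes were called, against 35 of all 10419. They were Rsad2, Ifit3, Cmpk2, Oas2 and Irf7, the last an inducer of type I interferon. Without letter C, the model with a letter for each state called Rsad2, Ifit3, Cmpk2 and Irf7, among 37 of all 10419 genes. Without a block, Cmpk2 was not called when BAF180-deficient replicate B or C or WT replicate A or B was left out, and then no gene of the list was. The median of the list was -0.18 without WT replicate A and -0.21 without BAF180-deficient replicate C. Eif2ak2 (-0.78), the kinase that senses double-stranded RNA, and Ifi27l2a (-1.15) were lower in the deficient array of each letter. Not all members were lower. Bst2, which tethers viruses to the cell surface, was at 6.03, 6.11 and 5.29 in WT and at 6.41, 6.44 and 6.40 in deficient cells, and among others Ly6e, Irgm1, Gbp3 and Igtp differed by between 0.03 and 0.17. In stimulated Th2 cells, on other arrays, the median of the same 40 genes was -0.30, and in resting and stimulated naïve cells it was -0.02 and 0.07.

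**Figure D4:**
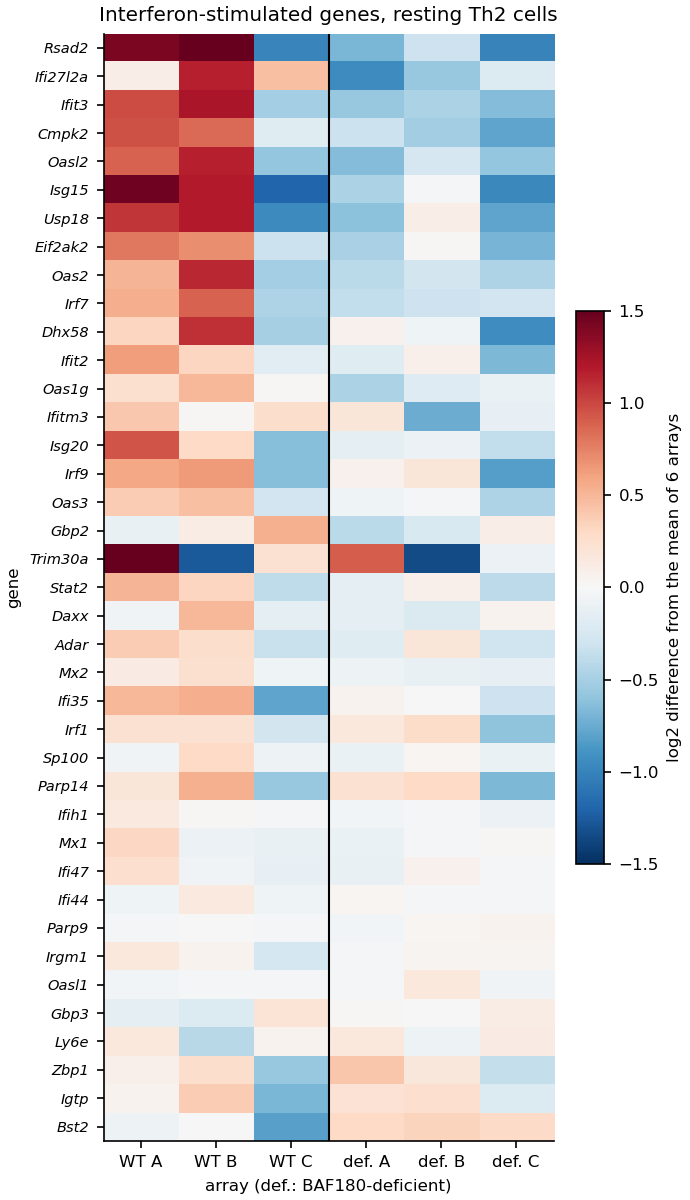
Level of 39 of the 40 interferon-stimulated genes (rows, ordered by the genotype difference) on the 6 resting Th2 arrays (columns), as the log2 difference from the mean of the 6 arrays (color, capped at 1.5 in both directions). WT replicates A and B are high in the upper rows, and WT replicate C is close to the BAF180-deficient arrays.

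MHC class I presentation, which is also under the control of interferons, moved in the same direction with smaller values. Of 14 genes 11 were lower (median -0.28), and none was called. B2m, the light chain of MHC class I, was at 13.15, 12.83 and 12.86 in WT and at 12.42, 12.25 and 12.59 in BAF180-deficient cells (-0.53). Tapbp, which loads peptides, was at 6.31, 7.14 and 6.23 against 6.12, 6.03 and 5.63 (-0.64). The median was lower for letters A (-0.16), B (-0.40) and C (-0.28).

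The genes of naive and quiescent T cells were lower as a group. This list holds homing receptors, transcription factors and other genes, most of them high before activation. It also holds Cd69, a marker of early activation. All 15 that passed the filter were lower in BAF180-deficient cells, with a median of -0.37, whereas 50.6% of all genes were higher, and none of the 15 was called. The medians were -0.34 for letter A, -0.29 for B and -0.44 for C, and they stayed between -0.44 and -0.26 when single arrays were left out. Tcf7, the transcription factor TCF-1 of naive and memory cells, was at 6.91, 7.14 and 7.46 in WT and at 5.89, 6.68 and 6.66 in deficient cells (-0.76, SE 0.29, limma adjusted p = 0.36 with a letter for each state). Tsc22d3, a glucocorticoid-induced gene, was at 8.83, 8.94 and 9.02 against 8.04, 8.33 and 8.38 (-0.68). Tob1, an inhibitor of T cell proliferation, was at 6.01, 6.22 and 5.86 against 5.53, 5.52 and 5.56 (-0.49), and Bach2, a repressor of effector genes, at 9.30, 9.56 and 9.27 against 8.96, 9.27 and 8.68. The genotypes did not overlap for these 4 members, where the lower direction without overlap was found for 4.47% of all genes. Ccr7, a chemokine receptor that guides cells to lymph nodes, differed by -0.38, while Foxo1 (-0.08) and Satb1 (-0.06) were within their errors. In the other 3 cell states the median of these genes was between -0.14 and -0.08.

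Families related to this group gave similar signs. All 8 GIMAP genes, GTPases that maintain the survival of lymphocytes, were lower by their brightest probe (median -0.22, -0.13 without WT replicate B), from -0.38 for Gimap8 to -0.03 for Gimap3, and none was called. A second probe of Gimap5 was higher by 0.085, at 5.57 in WT and 5.65 in deficient cells. In stimulated Th2 cells the median of the list was 0.12, and in resting and stimulated naïve cells -0.32 and -0.13. Of 8 KLF transcription factors 7 were lower (median -0.18), among them Klf3 (-0.67) and Klf2 (-0.17), whereas Klf9 was 0.55 higher and was called with a letter for each state. Of 25 genes of T cell receptor signaling 18 were lower (median -0.13). Among these Fyn, a kinase at the receptor, was at 6.91, 6.75 and 6.98 in WT and at 6.39, 6.70 and 6.05 in BAF180-deficient cells (-0.50). Of 18 memory and effector genes 15 were lower (median -0.12), with Ly6c1 at 8.13, 7.43 and 8.76 in WT and 7.48, 5.62 and 6.57 in deficient cells (-1.55, called with a letter for each state). The memory and effector median was 0.00 without WT replicate C. T cell markers as a whole had 7 of 12 lower members (median -0.12).

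**Figure D5:**
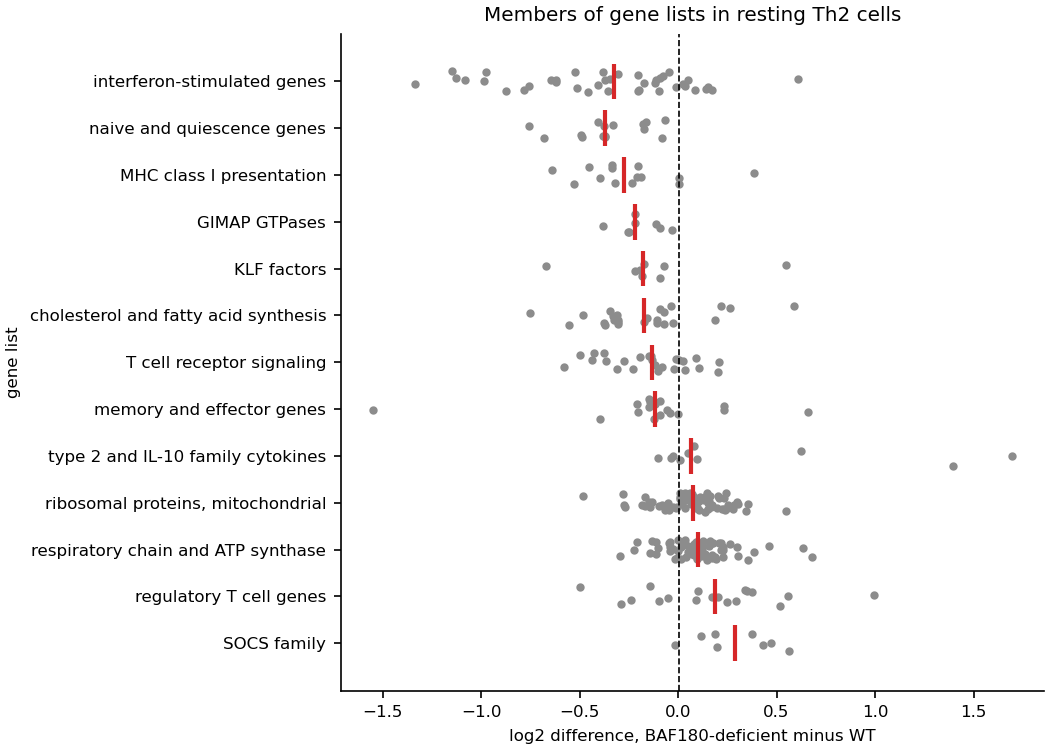
Difference between BAF180-deficient and WT resting Th2 cells (horizontal axis, log2) for the measured members of 13 gene lists, by their brightest probe. Each gray point is a gene, red ticks are medians and the dashed line is the median of all 10419 genes (0.00). No gene of the naive and quiescence or the GIMAP list lies above 0.

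Negative regulators of cytokine signaling had the opposite sign. Of the 8 SOCS genes, including Cish, 7 were higher (median 0.29, between 0.15 and 0.44 without single arrays) and none was called. Socs3 was at 9.02, 9.29 and 8.37 in WT and at 9.62, 9.71 and 9.03 in BAF180-deficient cells, higher in each letter (0.56). Socs1 was at 5.48, 4.72 and 4.35 against 5.61, 5.43 and 4.93 (0.47). Cish was at 12.12, 11.67 and 9.73 against 11.83, 11.84 and 11.13, and its value of 0.43 came from WT replicate C, without which it was -0.29. By letter, the list had a median of -0.04 in A, 0.28 in B and 0.44 in C.

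SWI/SNF subunits other than Pbrm1 did not meet the criteria. Arid2, which encodes the PBAF subunit BAF200, was at 6.63, 6.81 and 6.58 in WT and at 6.56, 6.55 and 6.44 in BAF180-deficient cells (-0.15, SE 0.38). Of 5 genes listed as specific to BAF only Dpf1, on 1 array of each genotype, was above the detection limit (-0.12). A response of the BAF form could therefore not be read from that list. The shared core included Smarca4, which encodes the ATPase BRG1, between 5.11 and 5.46 in WT and between 4.89 and 5.56 in deficient cells (-0.10). Smarca2 encodes the alternative ATPase BRM, which the study places in BAF but not in PBAF. It was detected on all 3 arrays of each genotype and differed by -0.01. Smarcc1, the scaffold BAF155, was at 6.34, 5.97 and 6.39 against 5.80, 5.81 and 5.72 (-0.46), and its second probe was at background. Smarcb1 (-0.23), Smarcd1 (-0.18), Smarcd2 (-0.14), Bcl7b (-0.28), Brd9 (-0.21), Bicra (-0.19), Ss18 (-0.11), Ss18l1 (-0.07) and Actl6a (-0.03) were below WT, and Smarce1 (0.05), Actl6b (0.20), Smarcc2 (0.23) and Bcl7a (0.27) above. The median of these 16 shared or other subunits was -0.10, and 4 were higher. Genes within 5 Mb of Pbrm1 had a median of 0.02 (41 genes, 22 higher).

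The medians of the metabolic lists shifted by less than 0.2 under the main settings. Of 72 genes of the respiratory chain and ATP synthase 55 were higher (median 0.10), and of 72 mitochondrial ribosomal proteins 53 were higher (median 0.08). Cox6b2, a subunit of cytochrome c oxidase, was called with a letter for each state (0.68), as were Mrpl13 and Mrps25 through probes other than their brightest. These were 1 of 72 and 2 of 72 genes, where 1.22% of all genes were called. None was called without a block. Both medians were small beside the median error of a gene, 0.19. Without BAF180-deficient replicate C they were 0.03 and -0.01, and under Z-score normalization the respiratory chain was at -0.02, so that a direction was not settled. Hk2, the first enzyme of glycolysis in activated T cells, was at 8.67, 8.74 and 8.09 in WT and at 9.21, 9.28 and 9.52 in deficient cells (0.84, adjusted p = 0.229 with a letter for each state). Of 25 genes of cholesterol and fatty acid synthesis 21 were lower (median -0.17), with Scd1, a fatty acid desaturase, at 6.72, 7.48 and 7.53 against 6.15, 6.10 and 7.23 (-0.75) and Sqle at 9.66, 10.22 and 8.41 against 9.17, 9.41 and 8.05 (-0.56). Without WT replicate B this median was -0.02, and it was -0.31 for the 23 genes that passed a filter on the mean detection p.

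Several further genes were called only with a letter for each state, and those named here were chosen after their values were seen. Prnp, the prion protein, was at 9.38, 10.10 and 8.46 in WT and at 8.39, 8.70 and 7.28 in BAF180-deficient cells, lower by about the same amount in each letter (-1.19, adjusted p = 0.0316). Nrn1, neuritin, was at 7.74, 7.75 and 5.99 against 5.45, 5.55 and 5.70 (-1.59, adjusted p = 0.22). Nlrx1, a mitochondrial regulator of innate signaling, was at 4.85, 4.64 and 4.64 against 6.08, 5.87 and 5.35 (1.06), and Dnmt3b, a DNA methyltransferase, at 7.63, 7.36 and 6.53 against 7.91, 8.58 and 7.64 (0.87). Crem, a factor that responds to cyclic AMP, was at 7.10, 6.84 and 6.51 against 7.62, 7.65 and 7.80 (0.87). In the model with a letter for each state, Pbrm1, Hsd17b11, Adcy6, Cmpk2, Gnaz, Il10, Foxp3, Dcxr, Cox6b2 and Prnp were called whichever letter was left out. Whichever letter was left out, it no longer called Hk2, Scd1, Phlda3 or Jak2. Crem, Dnmt3b, Klf9, Ly6c1, Emilin2, Gpnmb and Cdkn1a were lost without B and without C, and Lif and Cdkn2a only without C. Nrn1, Nlrx1, Sdcbp2 and Mansc1 were called without letter C but not without A or without B, and Abcb9 and Rgs1 were lost without B.

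Whether these differences were particular to rest was asked by testing the genotype difference at rest against that in stimulated Th2 cells. No probe met the criteria for such a difference in limma (lowest adjusted p = 0.500). An unadjusted p below 0.05 was reached by 257 probes, where 712.3 of 14246 would be by chance. With the replicate block the lowest limma adjusted p was 0.343, and 307 probes had an unadjusted p below 0.05. The differences at rest and after stimulation are therefore given side by side only. They were -1.86 and -1.42 for Pbrm1, -1.55 and -0.46 for Hsd17b11, -1.31 and -0.98 for Gpnmb, and -1.08 and -0.11 for Cmpk2. For Emilin2 they were 2.16 and 1.12, for Lif 1.12 and -0.09, for Il10 1.69 and 0.82, and for Foxp3 1.00 and 0.24. Emilin2 differed by 0.22 in resting and by -0.05 in stimulated naïve cells.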

How the data were processed

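RNA of 24 samples was hybridized to Illumina mouse beadchips, 1 sample per array. The authors deposited, from GenomeStudio, the average bead intensity of each of 25697 probes on each array, neither normalized nor background-subtracted, and the deposited table gives a detection p-value for each of them. Intensities of all 24 arrays were background-corrected with normexp using the detection p-values, offset by 16, quantile-normalized and log2-transformed (neqc in limma 3.58.1, R 4.3.3). A probe was kept if any array gave it a detection p of 0.02 or lower, which left 14246 probes of 10419 genes. Gene symbols of the table were updated through RefSeq. The number of arrays limits the precision, and the study describes 3 WT and deficient mouse pairs as their source.

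Differences were tested with lmFit and eBayes over 8 group means of all 24 arrays, with Benjamini-Hochberg adjustment over the kept probes, without a block, with the replicate letter as a block, and with a letter for each cell state. Pairing was checked by correlating the deviations of same-lettered arrays from their group means. Every letter exceeded 0.1 over the 4 states together, but letter A did not in resting Th2 cells, so that the pairing was left unsettled and all 3 models are given. The Z-score normalization of the methods was an alternative, as were the offset, the background correction, the detection filter, the arrays fitted, the call rule, the probe per gene, the moderation and each left-out array. Leaving out letters from the model with a letter for each state was added after seeing the data. The calling steps were tested on simulated data.

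The genes named are Pbrm1, the called genes, all SWI/SNF subunits and type 2 cytokines, genes the study named for Th2 cells, the called members of each list or the members with the largest differences, and further genes chosen after their values were seen, as said beside them or as examples of a list. The members, lists and tests were chosen with earlier results of these data known. Lists are described by counts and medians, and no set test was run. Some members of the lists count in the totals but are not reported here by name.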

Additional observations from a re-analysis of the deposited data

How the results depend on the processing

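The count of called genes depended on nearly every choice. Without a block it was 11, and it was 1 when only the 6 arrays were fitted, 2 when they were also normalized alone, 25 with Z-scores, 18 with an offset of 50, 5 without a detection filter, 4 without moderation and 4 at an adjusted p below 0.05. Leaving out single arrays gave between 2 and 35. With the replicate block it was 16, and under the same alternatives 4, 227, 43, 34, 25, 5 and 3, with 25 without background correction, 38 with the filter on the mean detection p and 45 with the brightest probe alone. Leaving out letters gave between 5 and 15. With a letter for each state it was 127, and between 29 and 96 without single letters. Whether the letters pair the samples was not settled, and the block kept all 11 genes. Pbrm1 was called in 17 of 17 alternatives and Hsd17b11 in 15, and none of the 11 genes changed sign. Of these 11, 1 was called with the 6 arrays alone and 2 without WT replicate B.

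The median of the naive and quiescence genes was -0.28 without background correction and -0.27 with an offset of 50, and between -0.44 and -0.26 without single arrays. The respiratory chain was at -0.021 with Z-scores and between 0.026 and 0.17 without single arrays. The type 2 cytokines were at 0.62 with the filter on the mean detection p, which left fewer genes, and between -0.017 and 0.17 without single arrays. Shared SWI/SNF subunits were at -0.060 with an offset of 50 and between -0.16 and -0.089 without single arrays, T cell receptor signaling between -0.21 and -0.037, and memory and effector genes between -0.16 and 0.0014. Cish was at -0.29 without WT replicate C and between -0.29 and 0.90 without single arrays, and Ifng, detected only in WT replicate B, at 0.0080 without that array and between -0.75 and 0.0080 without single arrays. The cause of these shifts was not tested. Dim probes near background limit what could be seen for most cytokines.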

Other observations

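Several large groups of genes were centred near all genes in resting Th2 cells. Of 67 cytosolic ribosomal proteins 30 were higher in BAF180-deficient cells (median -0.03), of 42 proteasome subunits 21 (median 0.00) and of 30 genes of nucleotide synthesis 18 (median 0.04). Of 55 histone genes 19 were higher (median -0.11) and of 35 ubiquitin-specific proteases 8 (median -0.11), and none of either was called under the 3 models. For 39 genes of ribosome biogenesis and RNA polymerase I the letters went apart, with a median of -0.11 for A, -0.12 for B and 0.34 for C. Chaperones were similar, at -0.14 for A, -0.03 for B and 0.28 for C.

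Trim30a, an interferon-stimulated gene, followed the letter more than the genotype. It was at 7.11, 4.30 and 5.79 in WT replicates A, B and C and at 6.47, 4.22 and 5.47 in the BAF180-deficient replicates, so that both B arrays stood low. Cd8b1, a chain of the CD8 coreceptor, was at 7.85, 7.67 and 8.41 in WT and at 6.46, 6.58 and 8.03 in deficient cells, was called with a letter for each state (-0.95), and stood highest on both C arrays. Among genes called with a letter for each state was also Epop, a partner of Polycomb proteins, at 7.44, 7.23 and 6.26 in WT and 7.92, 7.88 and 8.06 in deficient cells. Epop was not called in that model without letter B (limma adjusted p = 0.345) or without letter C (difference 0.57, limma adjusted p = 0.728). Cd8b1 was not called in it without letter A or B.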
